A study of Caenorhabditis elegans with 4 samples.

Results

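The PAR polarity genes of Caenorhabditis elegans were examined in early embryos in which sig-7 had been knocked down. The 9 members (par-1, par-2, par-3, par-4, par-5, par-6, pkc-3, cdc-42 and nmy-2) are the rows of the authors' deposited gene table that carry these names. Each name had 1 row among 37812, and all 9 were among the 10703 rows that Cuffdiff tested. Total RNA had been sequenced from wild-type N2 embryos, a mixture from the 1-cell to the 350-cell stage, washed from adults 72 h after synchronization. The control group (2 libraries) carried the empty RNAi vector L4440, and the knockdown group (2 libraries) received RNAi against sig-7, a gene for a nuclear cyclophilin. The labels name OP50 as the food and do not state when RNAi was given, and no other allele or agent is listed for either group. Separate cultures for the libraries within a group are not stated either, so the error behind each test may be technical.

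PAR proteins divide the cortex of the 1-cell embryo into an anterior and a posterior domain, and so make its first division asymmetric. PAR-3, PAR-6, the atypical protein kinase C PKC-3 and the GTPase CDC-42 occupy the anterior cortex, whereas the kinase PAR-1 and the RING-finger protein PAR-2 occupy the posterior cortex. PAR-4, a kinase related to LKB1, and PAR-5, an adaptor that binds phosphorylated proteins, are found throughout, and the non-muscle myosin heavy chain NMY-2 drives the cortical flow that carries the anterior proteins forward. Much of this RNA is laid down by the mother, and several of the same proteins are used again when epithelia form later in the embryo.

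The deposited values are FPKM (sequenced fragments per kilobase of RNA, scaled by the number mapped), given once per group. They have no spread between libraries, and the depth of each library is unknown. The words rose and fell are kept for genes whose deposited q-value in the authors' table (the p-value corrected over all tested genes) was under 0.05. An error for each log2 ratio (knockdown over control) was taken as that ratio divided by the deposited test statistic, because the deposited p-value equalled the 2-sided normal probability of that statistic to within 2.69e-06 in all 10098 tested genes above 0 in both groups. Intervals below are 95% intervals from this implied standard error (SE), and they cover only the error that the authors' model included.

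sig-7 itself was at 39.8 FPKM in control embryos and 8.72 FPKM in sig-7 RNAi. Markers of adult soma and of sperm were near 0. The 7 adult soma markers found, the yolk protein genes and 2 cuticle collagen genes, summed to 0.163 FPKM in control embryos and 0.320 FPKM in sig-7 RNAi, with rol-6 at 0 in both groups. The 7 sperm markers found summed to 0.0701 and 0.0276 FPKM, and 5 of them were at 0 in both groups. Stage markers, above all those of late embryos, were not level between the groups. Of all tested genes 11.2% rose and 17.3% fell. Of 10 maternal markers 1 rose and 1 fell, a share of calls below the 28.4% of all tested genes. Of 12 early zygotic markers 1 rose and 4 fell, and of 6 tested markers of late embryos 4 fell and 0 rose. The summed level of the late markers was 64.4 FPKM in control embryos and 26.7 FPKM in sig-7 RNAi. The largest part of both sums was unc-119, which has an SE of 4.97 in a locus of 286 gene rows. It is not among the 4 that fell. The early zygotic markers summed to 172.1 and 124.7 FPKM, and the maternal markers to 883.0 and 1165 FPKM. The largest part of the maternal sum was pos-1, with an SE of 0.94 in a locus of 288 gene rows. Scaled to equal total FPKM, the maternal sum would be lower in sig-7 RNAi than in control embryos. The part of stage makeup in the values below was not tested, and in such bulk samples fewer cells of a type and less RNA per cell cannot be told apart.

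None of the 9 PAR polarity genes passed the test, in either direction, in the authors' deposited table. Of all tested genes 28.4% were called (11.2% rose and 17.3% fell). No member reached an unadjusted p under 0.05 either, against 36.9% of tested genes, and the smallest member p was 0.0787, for par-5. In value 6 members were higher in sig-7 RNAi and 3 were lower, with log2 ratios between -0.68 for par-1 and 0.36 for par-5 and a median of 0.11. The median over all tested genes was -0.0056, and over the 6555 tested genes whose mean level lay within the members' range it was 0.20. Scaling both groups to equal total FPKM shifts every log2 ratio by -0.754 and would put all 9 members below 0, so the directions given here are those of the FPKM as deposited. A missed threshold does not show that the levels were equal, so the size of change that each interval still allows is given below.

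**Figure D1:**
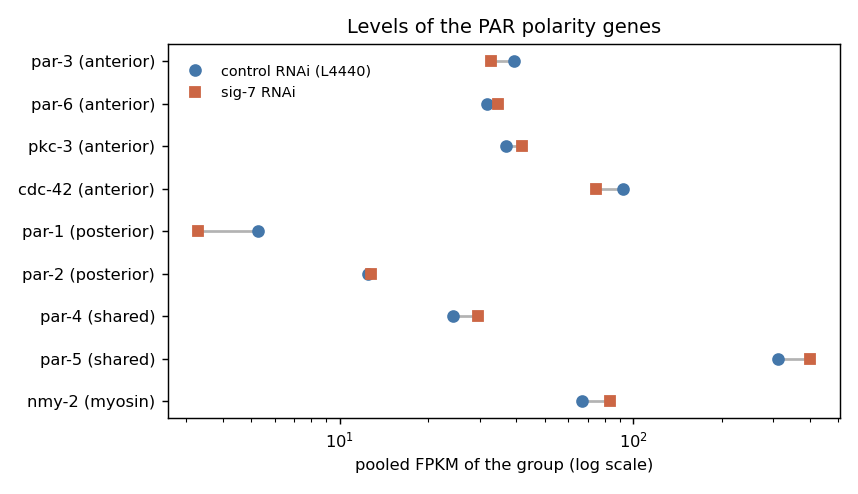
Pooled FPKM (log axis) of each PAR polarity gene in control RNAi (circles) and sig-7 RNAi (squares), 1 value per group with no spread. The pairs lie close together, from 5.27 and 3.30 FPKM for par-1 to 312.1 and 399.9 FPKM for par-5.

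Among the anterior genes, 2 values were lower and 2 were higher. par-3 encodes the PDZ scaffold of the anterior complex, and was at 39.3 FPKM in control embryos and 32.9 FPKM in sig-7 RNAi (ce10, chrIII:5664328-5675857). Its log2 ratio was -0.26 (SE 0.22, interval -0.68 to 0.17), with q = 0.443 in the authors' deposited table. The interval thus reaches from 0.623 to 1.12 times the control level. par-6 encodes the adaptor that joins PKC-3 to CDC-42 (chrI:12669616-12674035). It was at 31.9 FPKM in control embryos and 34.5 FPKM in sig-7 RNAi, a log2 ratio of 0.11 (SE 0.25, interval -0.37 to 0.60) with a deposited q of 0.875. pkc-3, the kinase gene (chrII:5380011-5383615), was at 36.9 FPKM and 41.8 FPKM. Its log2 ratio of 0.18 (SE 0.22, interval -0.25 to 0.61) had a deposited q of 0.651, and was close to that of its partner par-6. The level of pkc-3 was 1.16 times that of par-6 in the control and 1.21 times in sig-7 RNAi. The level of par-3, by contrast, was 1.23 times that of par-6 in the control and 0.953 times in sig-7 RNAi. cdc-42 encodes the small GTPase that binds PAR-6 (chrII:7616409-7617433), and had the lowest log2 ratio of the 4. It was at 92.4 FPKM in control embryos and 74.5 FPKM in sig-7 RNAi, a log2 ratio of -0.31 (SE 0.24, interval -0.78 to 0.16) with a deposited q of 0.381.

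The posterior genes had the lowest levels of the 9, and the lowest log2 ratio of the 9 was theirs. par-1, whose kinase acts at the posterior cortex and on cytoplasmic RNA-binding proteins, was at 5.27 FPKM in control embryos and 3.30 FPKM in sig-7 RNAi. This is 1.60-fold lower, a log2 ratio of -0.68 (SE 0.41, interval -1.49 to 0.14), with q = 0.237 in the authors' deposited table. The interval includes no change, and it also includes a level of 0.356 times the control. par-2, whose protein keeps PAR-3, PAR-6 and PKC-3 off the posterior cortex, was at 12.5 FPKM in control embryos and 12.8 FPKM in sig-7 RNAi (chrIII:1081399-1086601). Its log2 ratio of 0.037 (SE 0.29, interval -0.53 to 0.60) was the smallest of the 9 in size, with a deposited q of 1.00. The level of par-2 was 2.37 times that of par-1 in the control and 3.88 times in sig-7 RNAi.

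The deposited rows cover unequal parts of these genes. The deposited locus of par-1 (chrV:14112787-14114477) is 1691 bp long, which is 5.07% of the 33335 bp that the WBcel235 annotation gives the gene. Its length equals the annotated span of 1 of the 18 par-1 transcripts, H39E23.1i.1, a transcript of 5 exons and 690 nt, whereas the longest par-1 transcript has 5149 nt. The positions themselves were not compared, since WBcel235 is a later build than ce10. The par-1 value may therefore stand for only a short stretch of the gene, and its rank below the other members is less certain for that reason. The par-2 locus covers 38.03% of its annotated span, and the loci of the other single-gene members (par-3, par-6, pkc-3, cdc-42 and par-5) cover between 57.1% and 91.8%.

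Set side by side, the ratio of the summed anterior to the summed posterior RNA level differed little in value. These are RNA levels of mixed stages, and protein at the cortex was not measured. The summed level of the 4 anterior genes was 200.4 FPKM in control embryos and 183.7 FPKM in sig-7 RNAi, and that of the 2 posterior genes was 17.7 and 16.1 FPKM. The anterior sum was 11.3 times the posterior sum in the control and 11.4 times in sig-7 RNAi. cdc-42, which has many uses outside polarity, makes up much of the anterior sum, and without it the ratio was 6.08 in the control and 6.78 in sig-7 RNAi. par-2, at 12.5 and 12.8 FPKM, makes up most of the posterior sum, so that sum shows little of par-1. The median log2 ratio was -0.071 over the anterior genes and -0.32 over the posterior genes. The posterior median rests on 2 genes, par-1 and par-2, whose loci cover only 5.07% and 38.03% of their annotated spans. It carries no test. No anterior or posterior gene rose or fell.

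The genes whose proteins are not confined to either domain, and the myosin gene, were all higher in value, and lower with equal total FPKM. par-5 was the highest member in both groups, above 98.6% of tested genes in the control (chrIV:11820968-11821874). It was at 312.1 FPKM in control embryos and 399.9 FPKM in sig-7 RNAi, a log2 ratio of 0.36 (SE 0.20, interval -0.041 to 0.76) with a deposited q of 0.193. The interval ends just below 0, and no member came nearer to the threshold. par-4, the LKB1-related kinase gene, was at 24.2 and 29.5 FPKM, a log2 ratio of 0.28 (SE 0.28, interval -0.26 to 0.82) with a deposited q of 0.529. nmy-2 was at 66.9 FPKM in control embryos and 83.2 FPKM in sig-7 RNAi, a log2 ratio of 0.32 with a deposited q of 0.897. Its SE of 0.74 was the largest of the 9, and its interval of -1.13 to 1.76 allows anything from 0.458 to 3.38 times the control level. The locus listed for par-4 (chrV:18076330-18109384) is shared by 12 gene rows, and that listed for nmy-2 (chrI:7741936-8394405) by 150 gene rows over 652470 bp, although nmy-2 spans 7955 bp in the annotation.

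**Figure D2:**
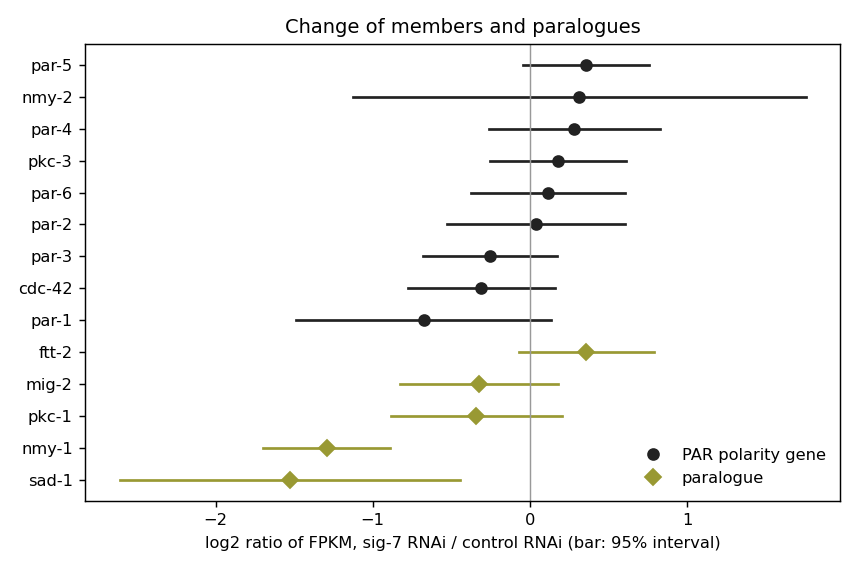
Log2 ratio of FPKM (sig-7 RNAi over control RNAi) for the 9 PAR polarity genes (circles) and 5 related genes (diamonds), with 95% intervals from the implied SE. Every member's interval includes 0, that of nmy-2 reaches from -1.13 to 1.76, and those of nmy-1 and sad-1 lie below 0.

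The order of the levels was much the same in both groups. par-5 came first, cdc-42 and nmy-2 followed, and par-4, par-2 and par-1 took the last places. cdc-42 was above nmy-2 in the control and below it in sig-7 RNAi, and par-3, pkc-3 and par-6, the genes of the anterior core, changed places among themselves between 31.9 and 41.8 FPKM. Whether neighbours in this order differ beyond their spread cannot be said, since no spread within a group was available. The range is wide all the same. par-5 was at 59.2 times the level of par-1 in the control, while par-1 lay above 37.5% of tested genes there.

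The size of change that could have been called differed among the members. The largest p among called genes was 0.0142, which corresponds to a statistic of 2.45. At their implied SE, par-5, par-3 and pkc-3 would have been called at 1.41-fold, 1.45-fold and 1.45-fold. cdc-42 and par-6 would have needed 1.500-fold and 1.53-fold, par-4 1.60-fold and par-2 1.64-fold. par-1 would have needed 2.02-fold and nmy-2 3.49-fold. A change of par-1 or nmy-2 below these sizes was thus not detectable here. For the 7 members whose locus holds 1 gene row, the background is 35.9% of 7132 such tested genes, and 38.8% of the 4571 of them at the members' levels. For loci of 100 gene rows or more, such as that of nmy-2, it is 0.117% of 1703 tested genes, so calls were rare there.

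par-3 had 4 isoforms in the deposited isoform table, all tested, and none was called, whereas 27.1% of tested isoforms were. They are numbered here in the order of their identifiers, which the tables do not pair with named transcripts. Isoform 1 was at 16.1 FPKM in control embryos and 18.0 FPKM in sig-7 RNAi, a log2 ratio of 0.16 (SE 0.32) with a deposited q of 0.856. Isoform 2 was at 20.6 FPKM and 13.5 FPKM, 1.53-fold lower, a log2 ratio of -0.61 (SE 0.30) with a deposited p of 0.0421 and q of 0.122. The more abundant isoform was thus isoform 2 in the control, with 52.3% of the summed par-3 level, and isoform 1 in sig-7 RNAi, with 54.8%. Their ratio (isoform 2 over isoform 1) was 1.28 in the control and 0.748 in sig-7 RNAi. The shift in shares was not tested, since isoforms of 1 locus share fragments and their errors are not independent. Isoforms 3 and 4 were minor, at 1.13 and 1.47 FPKM in control embryos and 0.807 and 0.582 FPKM in sig-7 RNAi, with implied SEs of 1.35 and 1.41.

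**Figure D3:**
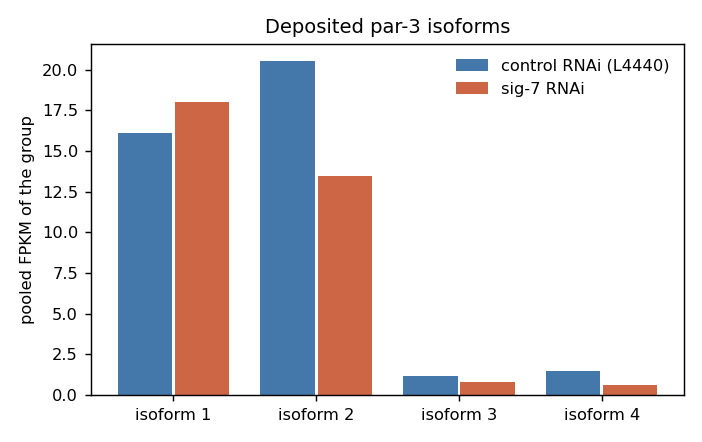
Pooled FPKM of the 4 deposited par-3 isoforms in control RNAi (left bars) and sig-7 RNAi (right bars), with no spread available. Isoform 2 leads in the control (20.6 FPKM) and isoform 1 in sig-7 RNAi (18.0 FPKM).

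The same par-3 fragments fell into 2 groups by transcription start, to which the isoforms were matched here by their summed FPKM. The group that holds isoforms 1 and 2 was at 36.7 FPKM in control embryos and 31.5 FPKM in sig-7 RNAi (deposited q = 0.552). The group that holds isoforms 3 and 4 was at 2.60 and 1.39 FPKM (deposited q = 0.558). The first group held 93.4% of the par-3 level in the control and 95.8% in sig-7 RNAi, and both isoforms that led in value were matched to it. par-1, for which the annotation lists 18 transcripts, had 1 deposited isoform, with the same FPKM values as its gene row (deposited q = 0.244), so no comparison among par-1 isoforms can be made. par-6 had a second isoform, listed at 0 in both groups with too few data to test, and the remaining members had 1 isoform each.

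Relatives of the members were compared with them pair by pair. ftt-2, which encodes the other protein of the PAR-5 family, was at 154.1 FPKM in control embryos and 197.5 FPKM in sig-7 RNAi, a log2 ratio of 0.36 (deposited q = 0.235), and the difference between par-5 and ftt-2 was -0.00069 (interval -0.59 to 0.59). The sources used here do not give how reads from such close relatives were divided, so these values may share reads. nmy-1, the second non-muscle myosin heavy chain gene, did fall, from 35.3 to 14.4 FPKM (2.45-fold, deposited q = 8.25e-09). The log2 ratio of nmy-2 exceeded that of nmy-1 by 1.61 (interval 0.11 to 3.11, with errors taken as independent), but the interval adjusted over the 6 pairs compared (-0.41 to 3.62) includes 0. sad-1, a neuronal kinase gene related to par-1, fell from 0.673 to 0.234 FPKM (deposited q = 0.0240), and differed from par-1 by 0.85 (interval -0.50 to 2.20). The log2 ratio of pkc-3 exceeded that of pkc-1, another protein kinase C gene, by 0.52 (interval -0.17 to 1.22), and that of cdc-42 differed from that of the Rac-like gene mig-2 by 0.014 (interval -0.67 to 0.70). The pair of cdc-42 and the Rac gene ced-10 has an interval of -9.62 to 9.58 and says nothing. Both relatives that fell, nmy-1 and sad-1, are on the X chromosome, where 34.4% of tested genes fell against 14.5% elsewhere, whereas no member is X-linked, and the part of X linkage in these pairs was not tested. pkc-2 and rac-2 were not tested, and both stood below 0.27 FPKM.

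Genes that work with the PAR proteins in the zygote were counted against the same background, in which 11.2% of tested genes rose and 17.3% fell. Of 10 genes for direct partners and regulators, 1 fell and 0 rose, with a median log2 ratio of -0.16. The gene that fell was mrck-1, a kinase that binds active CDC-42, from 34.4 to 22.1 FPKM (1.56-fold, deposited q = 0.0120). lgl-1, which acts beside PAR-2 at the posterior cortex, was at 11.2 and 8.56 FPKM (deposited q = 0.263), and chin-1, a GTPase-activating protein gene for CDC-42, at 13.1 and 12.2 FPKM (deposited q = 0.918). Of 16 tested genes of cortical contractility 2 fell and 0 rose, with a median of 0.046 that turned below 0 with equal total FPKM and with equal upper quartiles. mel-11, the gene of a myosin phosphatase subunit that opposes contraction, fell from 32.1 to 21.4 FPKM (1.501-fold, deposited q = 0.0362).

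The centrosome, which gives the cue for the posterior domain, was represented by 7 genes, of which 2 rose and 0 fell (median log2 ratio 0.48), a share of calls close to the 28.4% of all tested genes. pam-1, an aminopeptidase gene needed to position the polarity axis, rose from 99.9 to 208.6 FPKM (2.09-fold, deposited q = 2.68e-06), and tbg-1, the gamma-tubulin gene, rose from 30.96 to 50.3 FPKM (1.63-fold, deposited q = 0.0116). Of 14 genes of spindle positioning, which reads the PAR domains, 2 rose and 1 fell (median 0.35), again not above that share. The medians of both lists turned below 0 with equal total FPKM, where 1 of the 2 rises in the centrosome list and 0 of the 2 in the spindle list kept their sign. let-99, whose protein forms a cortical band between the domains, rose 1.60-fold from 11.6 FPKM (deposited q = 0.0234), and ooc-5, a torsin-related gene needed to localize PAR proteins, rose 1.59-fold from 51.0 FPKM (deposited q = 0.0152). gpb-1, the G protein beta subunit gene, fell 1.86-fold from 43.6 FPKM (deposited q = 0.0153). The 9 genes for cytoplasmic factors that PAR-1 acts on or that act below it, among them mex-5 (94.4 and 91.8 FPKM) and mex-6 (75.8 and 90.5 FPKM), had a median of 0.26, and 0 of the 9 were called, with 1 at an unadjusted p under 0.05. Their median too turned below 0 with equal total FPKM. Of these 9 genes, 4 share loci of 20 gene rows or more. The same holds for 6 of the 16 contractility genes and 3 of the 14 spindle genes. It also holds for 2 of the 7 centrosome genes and 2 of the 10 partner genes. Calls were rare in such loci at the members' levels, 6.27% for 20 to 99 rows and 0.186% for 100 or more. A missing call there does not show an unchanged level. In the partner, contractility, centrosome and spindle lists, pam-1 was the only call left at q under 0.01, and gpb-1 was not tested in the isoform and transcription start tables, where its FPKM values are the same.

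Genes of the epithelial junctions, where PAR-3, PAR-6 and PKC-3 act later in the embryo, differed from the members in their counts. Of 8 tested, 6 fell and 0 rose, with a median log2 ratio of -1.58, against 17.3% falls among all tested genes. crb-1, a Crumbs gene of the apical membrane, fell from 9.37 to 1.80 FPKM (5.20-fold, q listed as 0), and ajm-1, which encodes a junction protein, fell from 17.7 to 4.10 FPKM (4.31-fold, deposited q = 1.37e-14). Of the 8 tested genes 4 are on the X chromosome and all 4 fell, while no PAR polarity gene is X-linked. Falls were listed for 34.4% of tested X-linked genes and 14.5% of the others. On the autosomes, the alpha-catenin gene hmp-1 (43.8 and 11.5 FPKM, deposited q = 0.00260) and the cadherin gene hmr-1 (91.3 and 52.8 FPKM, deposited q = 8.82e-04) fell as well, both named after their values were seen. The hmp-1 value comes from a listed locus of 948 bp and has an SE of 0.54. The autosomal genes hmp-2 (46.6 and 42.7 FPKM, deposited q = 0.793) and let-413 (38.6 and 15.9 FPKM, deposited q = 0.733) did not pass the test. let-413 has an SE of 1.88, in a locus of 288 gene rows. This difference between the members and the junction genes in how many fell was not tested, since both lists were chosen with results known, and the late embryo markers above moved in the same direction as the junction genes.

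**Figure D4:**
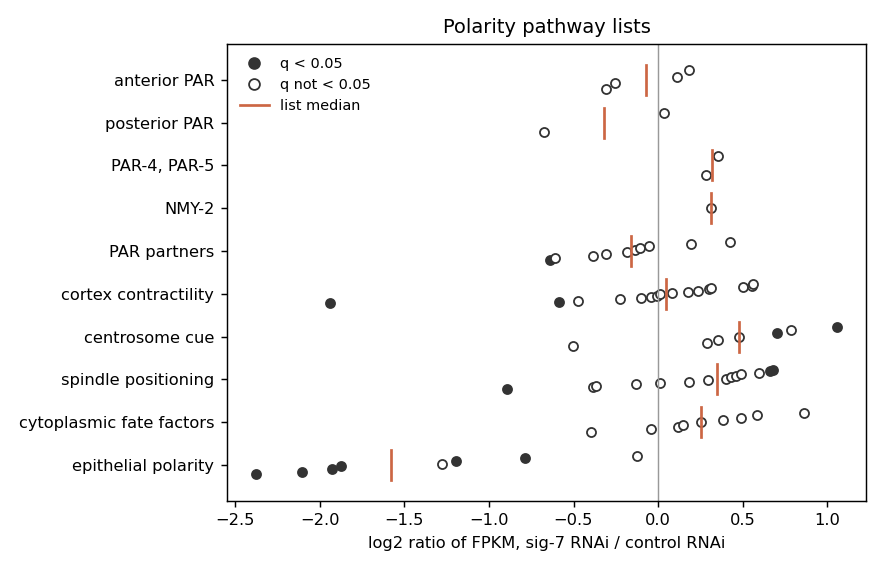
Log2 ratio of FPKM (sig-7 RNAi over control RNAi) for each tested gene of the polarity lists, with filled points for q under 0.05 and a line at each list's median. The 9 PAR polarity genes (first 4 lines) hold no filled point, and 6 of the 8 epithelial polarity genes are filled below 0. With equal total FPKM all points would move left by the same amount.

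The number of gene rows that share a locus went with the error of a value, which bears on nmy-2 most of all. Among tested genes at the members' levels, the median implied SE was 0.26 in loci of 1 gene row (4571 genes), 0.33 in loci of 5 to 19 rows (94 genes) and 3.16 in loci of 100 rows or more (1077 genes). The median size of the log2 ratio was nearly the same in these classes, at 0.53, 0.64 and 0.53. Of the genes in loci of 100 rows or more 0.186% were called, against 38.8% in loci of 1 row. nmy-2 had a lower SE than the median of its class, and still the largest of the 9 members.

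**Figure D5:**
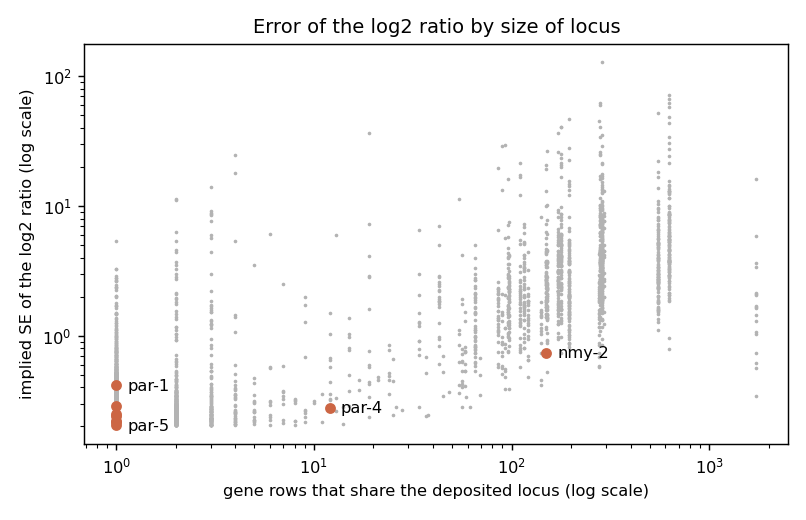
Implied SE of the log2 ratio (log axis) against the number of gene rows that share the deposited locus (log axis), for tested genes at the members' levels (grey) and the 9 PAR polarity genes (large points). nmy-2, in a locus of 150 gene rows, has an SE of 0.74, and par-5, alone in its locus, has 0.20.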

How the data were processed

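Total RNA of 2 control and 2 sig-7 RNAi libraries was compared, grouped by sample title. Per the submitters' processing notes, the authors used build ce10, TopHat2, Cufflinks 2.1.1 and Cuffdiff 2.0.2. The sources used here give no parameters, annotation or strand setting. FPKM was deposited by the authors, pooled per group, per the file headers, so depth and library spread are unknown. The p-value and q-value are the authors', per the file headers. The deposited log2 ratio, held with the test statistic as a score because infinite ratios are coded as numbers, matched the FPKM ratio to within 1.43e-05 (deposited starts count from 0 and are given from 1). Ratios, implied SEs and intervals were computed with Python 3.11.15, pandas 2.3.3 and scipy 1.17.1. The code was run on simulated data built with the same formula. That checks the arithmetic only, and cannot show whether the implied SEs suit Cuffdiff values. Of 129 list names, 124 matched by symbol and 1 (picc-1) by sequence name. Members and lists were chosen with earlier results of these data known. All members were named, and in each pathway list the 2 largest folds past the threshold per direction, except 1 gene of the contractility list that is not reported here. Other genes (lgl-1, chin-1, mex-5, mex-6 and the relatives) are named by role. Alternatives were a stricter q, other scalings, a pseudocount, a floor, other tables and single-gene loci.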

Additional observations from a re-analysis of the deposited data

How the results depend on the processing

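The count of 0 called PAR polarity genes could not rise at q under 0.01, with a floor of 1 FPKM or in loci of 1 gene row. A pseudocount of 1 FPKM leaves the deposited q-values as they are. These settings therefore say nothing on how firm the count is. It was 0 in the isoform and transcription start tables too, but there the tested rows of all members except par-3 repeat the FPKM of the gene row. Likewise, the 0 called isoforms of par-1 and par-3 could not rise at q under 0.01, and the transcription start table also held 0 calls for these genes. Scaling to an equal median of tested genes shifts every log2 ratio by 0.0056 and left all 39 results examined under it the same. Other scalings changed directions in value. The knockdown had 1.69 times the total FPKM of the control, and scaling to equal totals shifts every log2 ratio by -0.754. The log2 ratios then were -0.64 for par-6, -0.57 for pkc-3, -0.72 for par-2, -0.47 for par-4, -0.40 for par-5 and -0.44 for nmy-2, all reversed. The medians became -0.83 (anterior), -1.07 (posterior), -0.44 (par-4, par-5 and nmy-2, reversed), -0.91 (partners), -2.33 (epithelial) and -1.09 (paralogues), and turned to -0.71 (contractility), -0.28 (centrosome), -0.41 (spindle) and -0.50 (cytoplasmic factors). Of the called rises, 1 kept its sign in the centrosome list and 0 in the spindle list. Scaling to equal upper quartiles, added after the data were seen, turned par-6 to -0.028, par-2 to -0.11 and the contractility median to -0.097. At q under 0.01, falls went to 0 in the partner, contractility and spindle lists and to 1 among paralogues, and rises to 1 (centrosome) and 0 (spindle). In loci of 1 gene row, also added, falls numbered 0 among partners, 1 in contractility, 3 of 4 epithelial genes (median -1.90) and 1 among paralogues. The spindle list had 0 falls in both other tables, where gpb-1 was not tested, and 1 paralogue fall was left in the isoform table and with the floor. For these list counts the cause was not tested, beyond the fewer genes left. No paired analysis was possible because the deposited values are pooled per group, and for the same reason no replicate could be left out. The depth of each library is unknown, so its limit on single genes could not be given.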

Other observations

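Outside the polarity pathway, the genes nearest to the members with the highest and the lowest log2 ratio were found by the distance over 2 values per gene, the log2 FPKM of both groups, among 9913 tested genes with 1 name. For par-5 they were the ribosomal protein genes rps-25 (322.3 and 410.4 FPKM, distance 0.060), rpl-41 (325.8 and 399.8 FPKM, distance 0.062) and rpl-10 (321.8 and 429.8 FPKM, distance 0.11). None of these was called. For par-1 they were Y46G5A.2 (5.28 and 3.24 FPKM, distance 0.025), ndx-3 (5.21 and 3.17 FPKM, distance 0.059) and set-29 (5.03 and 3.30 FPKM, distance 0.066), and none was called either. With 2 values per gene such likeness is a description of level and ratio only.

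Among the maternal markers, nos-2, which encodes a Nanos-related protein of the germline precursors, rose from 55.5 to 94.6 FPKM (deposited q = 0.00933), and skn-1, a transcription factor gene of early blastomere fate, fell from 23.1 to 14.0 FPKM (deposited q = 0.0340). The log2 ratio of nos-2 was 0.77, so the shift of -0.754 with equal total FPKM would leave it near no change. The early zygotic markers of the endoderm were divided. med-2 rose from 1.08 to 3.91 FPKM (deposited q = 0.0135), and med-1 (0.763 and 2.00 FPKM, deposited q = 0.153) and end-3 (3.13 and 5.63 FPKM, deposited q = 0.105) did not pass the test. The log2 intervals of med-2 (0.64 to 3.07) and med-1 (-0.050 to 2.83) overlap widely, so these genes are not shown to differ from each other. end-1 fell from 12.2 to 4.77 FPKM (deposited q = 9.50e-04), and elt-2, the later GATA factor gene of the intestine, fell from 6.37 to 1.09 FPKM (deposited q = 2.52e-09). The other falls in that list were elt-1 (3.19-fold, from a listed locus of 321 bp) and pha-4 (3.03-fold). The falls among late embryo markers ran from 2.56-fold for myo-3 to 12.6-fold for elt-3. The elt-3 fold is uncertain in size, since its levels were only 3.18 and 0.252 FPKM, with an SE of 1.12. These genes were named after their values were seen.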
